A study of Homo sapiens with 8 samples.

Results

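The 83 genes described here encode the proteins of the cytosolic ribosome and were found by symbol in a table of 57445 human genes: RPL or RPS followed by a number, with or without a closing A, X or L, together with RPLP0, RPLP1, RPLP2 and RPSA. They comprised 49 genes of the large subunit and 34 of the small subunit. After a filter on low counts (a mean of at least 10 reads over the libraries), 78 of them, 47 large and 31 small, were tested among 15806 genes.

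The libraries were made from MDA231-BrM2, a brain-seeking derivative of the human breast carcinoma line MDA-MB-231, by translating ribosome affinity purification, in which GFP-tagged ribosomes are captured with anti-GFP beads and the mRNA bound to them is sequenced. The 4 groups, of 2 libraries each, were cells with a control hairpin cultured alone, the same cells cocultured with astrocytes, and cells with hairpin Cx43sh1 or hairpin Cx43sh2 cocultured with astrocytes; both of these hairpins target connexin 43, the gap junction protein encoded by GJA1. Astrocytes and carcinoma cells were mixed in equal number for 24 h, and every group, the cells alone included, carried a hairpin and the ribosome tag. No depleted cells without astrocytes were analysed here, so a change with depletion cannot be set apart from coculture. The labels give neither the species of the astrocytes nor the tagged protein, nor whether a hairpin line came from 1 clone. The design calls the duplicates independent without saying whether they were separate cultures, so the spread between them may be partly technical.

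Each cytosolic ribosome carries one copy of most of these proteins, around a large subunit that forms peptide bonds and a small subunit that decodes mRNA, and dividing cells make the proteins in matched amounts from very abundant, short mRNAs. Most of these mRNAs begin with a 5′ terminal oligopyrimidine tract (5′ TOP), a C followed by an unbroken run of pyrimidines. The kinase complex mTORC1 controls the loading of 5′ TOP mRNAs on ribosomes, in part through the binding protein LARP1, so ribosome-bound RNA reads both the amount of such an mRNA and its loading.

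Start sites from RefSeq (GRCh38.p14) were searched on the transcribed strand for such a run: a C not preceded by another C, lying within 3 bases of the annotated start, and followed by at least 4 pyrimidines. It was present in 51 of the 64 genes with an entry (79.7%) and in 4250 of 27305 genes of the whole table (15.6%). The other 19 genes, RPS2 and RPL5 among them, had no entry. The windows below run from 10 bases before the annotated start to the first 20 transcribed bases, 5′ to 3′, with the run in capitals. RPSA, RPL7A, RPS3 and RPS4X are shown because they had lower levels with hairpin 1; RPL31 and RPS24 had the widest and the narrowest spread over the libraries; RPS27 and RPS27L are paralogs, one with and one without a run.
RPSA: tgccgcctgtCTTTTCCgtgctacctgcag
RPL7A: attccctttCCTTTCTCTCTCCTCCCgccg
RPS3: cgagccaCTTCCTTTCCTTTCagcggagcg
RPS4X: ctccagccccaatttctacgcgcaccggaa
RPL31: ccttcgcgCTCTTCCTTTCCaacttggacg
RPS24: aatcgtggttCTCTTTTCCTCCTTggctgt
RPS27: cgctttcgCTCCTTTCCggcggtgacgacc
RPS27L: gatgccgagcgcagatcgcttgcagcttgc
On the plus strand these lay at chr3:39406710-39406739 (RPSA), chr9:133348208-133348237 (RPL7A), chr11:75399508-75399537 (RPS3), chr2:101002279-101002308 (RPL31), chr10:78033853-78033882 (RPS24) and chr1:153990752-153990781 (RPS27), and on the minus strand at chrX:72277229-72277258 (RPS4X) and chr15:63157458-63157487 (RPS27L). Each window spans the upstream flank and the start of the first exon. The runs differed in length, from 7 bases in RPSA to 17 in RPL7A, and RPS4X held none at its annotated start and was also lower with hairpin 1.

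The libraries held 38219702 to 48997555 reads assigned to genes. GJA1 stood at 51.1 and 46.3 CPM (read counts scaled to a common library size) in cells alone, 65.9 and 64.7 in the control coculture, 27.8 and 27.8 with hairpin 1 and 31.7 and 33.8 with hairpin 2, so the labels held for the targeted gene in all 8 libraries. Of the markers of this line, all 8 were detected and summed to 3011 to 4009 CPM. The 8 astrocyte markers summed to 13.5 to 13.9 CPM in cells alone and 18 to 22.5 CPM in the cocultures, with 4 of them, AQP4, SLC1A2, GJB6 and S100B, under 1 CPM in every library. GFAP stood at 8.80 and 8.53 CPM alone and 11.7 to 16.9 in the cocultures, and SLC1A3 at 2.67 and 3.04 against 3.57 to 5.61. ALDH1L1 leaned the other way, at 1.43 and 1.16 CPM alone against 0.821 to 1.23, and ALDOC overlapped. Reads that aligned to more than one place, which the authors' counting kept apart from genes, were 14.2% to 26.1% of the reads assigned to genes plus the counter rows, highest in the first control coculture library. One library stood apart for the ribosomal protein genes, the second with hairpin 1, and values that rest on it are given with and without it.

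Levels are given as CPM scaled by the trimmed mean of M-values (TMM), and between genes only per kilobase of transcript. Over the 69 tested genes with a usable transcript length, RPS18, a small subunit protein, was highest at 4640 CPM per kb, followed by RPS19 at 3117, RPS29 at 2231 and RPS21 at 2147. The lowest were RPL36A at 116 CPM per kb, RPL39L at 125, RPL17 at 167 and RPS26 at 274. Ribosomal protein genes have many processed pseudogenes, and reads that fit several copies are lost from a count of unique alignments. In RPL17, 9.68% of the 50-base words of the transcript occurred in no other annotated gene, against 43.2% in RPS26 and 98.3% in RPS19. The 22 genes with under 50% such words had a median of 680 CPM per kb and the remaining genes 1125. Levels of genes such as RPL17 and RPS10, which had 9.65%, are therefore uncertain. A comparison of 1 gene between libraries uses the same words, but the share of reads that aligned to several places differed between libraries. RPSA, RPS2 and RPL7A, named below for depletion, had 33.9%, 30.6% and 33.8% such words. RPS3 and RPS4X, named below for hairpin 1, had 77% and 89.3%. The part of lost reads in their changes was not tested.

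The paralog pairs differed widely in level. RPL39, a small protein of the exit tunnel, stood at 388 CPM per kb, above its paralog RPL39L at 125. RPL3, near the peptidyl transferase centre, stood at 1385 CPM per kb, and its muscle-type paralog RPL3L had 1 to 5 reads per library. RPL10, which joins the large subunit late in its assembly, stood at 817 CPM per kb, and RPL10L, known from testis, had 0 to 4 reads. RPS27L, a p53-inducible paralog of RPS27, was the tested gene with the fewest reads, a mean of 3264, and RPS10L the untested one with the most, a mean of 3.5.

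The 78 genes moved together from library to library. Their summed level was 61394 and 69869 CPM in cells alone, 54279 and 69185 in the control coculture, 54005 and 42086 with hairpin 1, and 60764 and 57239 with hairpin 2. The second hairpin 1 library was below all others, and the control coculture libraries lay on either side of both hairpin 2 libraries. With each gene centred on its own mean, the median over the genes was 0.103 and 0.293 (log2) in cells alone, −0.107 and 0.264 in the control coculture, −0.095 and −0.472 with hairpin 1, and 0.070 and −0.015 with hairpin 2. In the second library of cells alone and of the control coculture all 78 genes were above their own mean, and in the second hairpin 1 library 0 were.

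**Figure D1:**
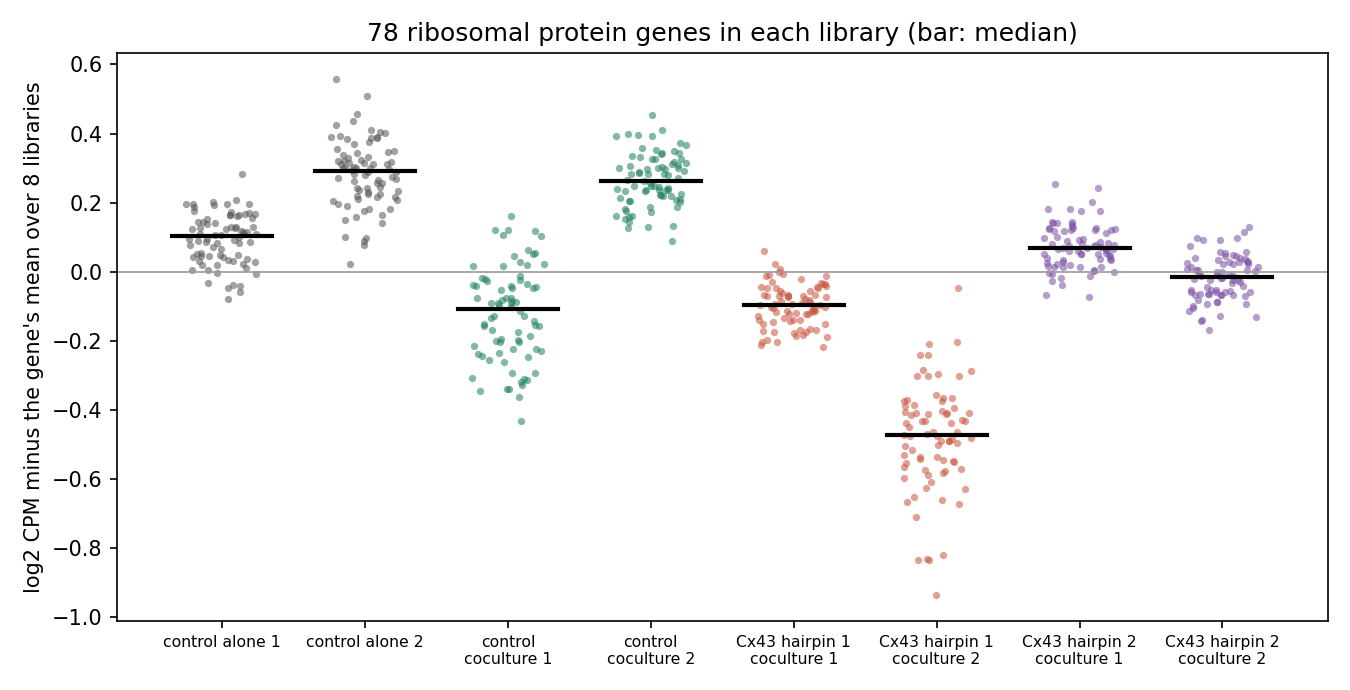
Each point is 1 of 78 ribosomal protein genes in 1 library, as log2 CPM minus that gene's mean over the 8 libraries (y axis), with the libraries along the x axis and a bar at the median. The second hairpin 1 library has the lowest median, −0.472, and the 2 control coculture libraries lie on opposite sides of 0.

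Replicates differed for nearly all genes in the same direction. The second library was above the first for all 78 genes in cells alone (median difference 0.19, log2) and in the control coculture (0.37), for 0 with hairpin 1 (−0.36), and for 5 with hairpin 2 (−0.08). Across the 8 libraries the median correlation between pairs of the genes was 0.923, and 61.9% of the pairs were above 0.9; these points share library, depth and scaling, and the value is a description. The second hairpin 1 library held the lowest level of 77 genes. The exception was RPS24, a small subunit protein with several splice forms, at 914 and 1006 CPM alone, 905 and 1070 in the control coculture, 909 and 909 with hairpin 1, and 893 and 924 with hairpin 2. Its spread was the smallest of the 78, an SD of 0.093 (log2), and hairpin 1 left it within the range of the other libraries.

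The widest spreads were those of 3 short large-subunit genes. RPL31 stood at 875 and 1087 CPM alone, 651 and 1081 in the control coculture, 828 and 431 with hairpin 1, and 983 and 901 with hairpin 2. RPL41, which encodes a peptide of 25 amino acids, ranged from 144 to 377 CPM, and RPL35 from 305 to 765 CPM. In each of them the 2 lowest libraries were the second with hairpin 1 and the first control coculture, so the groups overlapped. RPL11 kept closest to the list, with a range of 0.093 (log2) after the median of all ribosomal protein genes was taken off in each library, against 0.648 for RPL31.

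Coculture of control cells with astrocytes left the ribosomal protein genes without a called change. None of the 78 passed an adjusted p of 0.05 in edgeR's quasi-likelihood test (the threshold used throughout, adjusted by Benjamini-Hochberg over all tested genes), none reached an unadjusted p under 0.05, and DESeq2 called 0, while 11.7% of all tested genes were called. The median log2 change over the 78 was −0.12, from −0.39 in RPL41 to 0.21 in RPL12, with 61 below 0, beside −0.003 over all tested genes. Both coculture libraries were below both of cells alone in 4 of the 78 genes, against 26.3% of all tested genes. RPSA, a small subunit protein also known as a laminin receptor, was at 685 ± 55.2 CPM alone (SD, n = 2) and 699 ± 41.6 in coculture. The median turned on 1 library: it was −0.36 without the second control coculture library and 0.08 without the first. The summed astrocyte markers were higher in coculture, through GFAP and SLC1A3 as above, and their part in these values was not tested. In ribosome-bound RNA pooled over many cells, fewer cells with an mRNA and less of it per cell cannot be told apart.

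Depletion of connexin 43, the mean of both hairpins against the control coculture, lowered 3 of the 78 genes and raised 0. The called genes were RPSA, RPS2 and RPL7A, and 5.85% of all tested genes were called lower. DESeq2 called 5, RPS3 among them (−0.40 on the log2 scale, DESeq2 adjusted p = 0.0342), and 5.54% of all tested genes lower. All 78 estimates were below 0, from −0.43 to −0.01 with a median of −0.21 (log2), beside −0.008 over all tested genes. Leaving out the second hairpin 1 library gave a median of −0.12, with 69 of the 78 below 0. The 4 depleted libraries were all below both control coculture libraries in 10 of the 78 genes, against 18.1% of all tested genes. Marker sums also differed in this contrast: the 8 carcinoma line markers stood at 4009 and 3920 CPM in the control coculture and 3011 to 3236 in the depleted libraries, 4 fibroblast markers at 788 and 734 against 415 to 491, 4 neuron markers at 21.6 and 21.5 against 13.8 to 15.3, and 6 microglia markers at 5.58 and 5.31 against 3.06 to 4.14. Control cells alone, with no other cell type added, held these markers too. Their sums were 3375 and 3124 CPM for the carcinoma line, 1041 and 644 for fibroblast, 14.8 and 14.8 for neuron, and 2.89 and 3.66 for microglia markers. Single genes carried most of each difference with depletion. VIM stood at 2175 and 2095 CPM against 1356 to 1548, and COL1A1 at 655 and 602 against 336 to 402. MAP2 stood at 12.0 and 12.0 against 6.34 to 7.05, and CD68 at 3.70 and 3.84 against 1.83 to 2.61. EGFR overlapped at 196 and 172 against 195 to 229, and CAV1 at 352 and 370 against 352 to 390. PDGFRB overlapped at 8.43 and 8.10 against 6.52 to 8.51. AIF1, a defining microglia marker, was at 0 in every library and the neuron marker RBFOX3 at 0 to 0.0257 CPM. Astrocyte markers stood at 21.4 and 20.8 CPM against 22.2 and 22.5 with hairpin 1 and 18 and 18.1 with hairpin 2. The part of these in the ribosomal protein values was not tested.

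RPSA stood at 670 and 729 CPM in the control coculture, 526 and 432 with hairpin 1, and 571 and 557 with hairpin 2. The depleted libraries did not overlap the controls, and the log2 change was −0.43 (SE 0.088, edgeR adjusted p = 0.0207). RPS2, a small subunit protein at the entry of the mRNA channel, stood at 945 and 1042 CPM in the control coculture, 779 and 673 with hairpin 1, and 858 and 806 with hairpin 2. All 4 depleted values were again below both controls, a log2 change of −0.35 (SE 0.078, edgeR adjusted p = 0.0268). RPL7A, on the outer face of the large subunit, stood at 707 and 815 CPM in the control coculture, 586 and 502 with hairpin 1, and 642 and 607 with hairpin 2. These groups were separate as well, with a log2 change of −0.38 (SE 0.086, edgeR adjusted p = 0.0288). Without the second hairpin 1 library all 3 kept their calls, at −0.36, −0.31 and −0.33 (log2; edgeR adjusted p = 0.0202, 0.0351 and 0.0395). Without the second control coculture library the calls were lost, the median was 0.00 and RPSA was at −0.36 (log2). The calls were also lost without either hairpin 2 library, and fewer of the 78 were called without either library of cells alone. These fits called fewer of all tested genes lower too. The median was −0.39 (log2) without the first control coculture library and −0.32 without the first hairpin 1 library.

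Hairpin 1 alone lowered 6 of the 78 genes by edgeR, where 4.73% of all tested genes were called lower. DESeq2 called 23 lower, beside 4.97% of all tested genes. The names that follow are of the 6 called by edgeR. They included RPSA, RPS2, RPL7A, RPS3 and RPS4X, and 5 of the 6 were in the small subunit. The median over the 78 was −0.36 (log2), from −0.59 to −0.10, and 36 genes had both hairpin 1 libraries below both control coculture libraries, against 25.2% of all tested genes. RPS3, which lines the mRNA entry channel and has a known role in DNA repair, stood at 967 and 1233 CPM in the control coculture and 831 and 632 with hairpin 1. It had the largest estimate of the 78, −0.59 (log2; SE 0.15, edgeR adjusted p = 0.0477). RPS4X, the X-linked copy of a small subunit protein, stood at 969 and 1096 CPM against 838 and 653, a log2 change of −0.47 (SE 0.12, edgeR adjusted p = 0.0481). In each gene the second hairpin 1 library was the lowest of the 8, and in all 6 both hairpin 1 libraries lay below all 4 control libraries. Without that library none of the 6 kept its call, the median over the 78 was −0.19 and RPSA was at −0.41 (log2). The calls were also lost without the second control coculture library, with a median of −0.15 and RPSA at −0.48, and without either hairpin 2 library. Fewer were called without either library of cells alone, with a median of −0.37. These fits called fewer of all tested genes lower too. The median was −0.52 without the first control coculture library and −0.56 without the first hairpin 1 library.

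**Figure D2:**
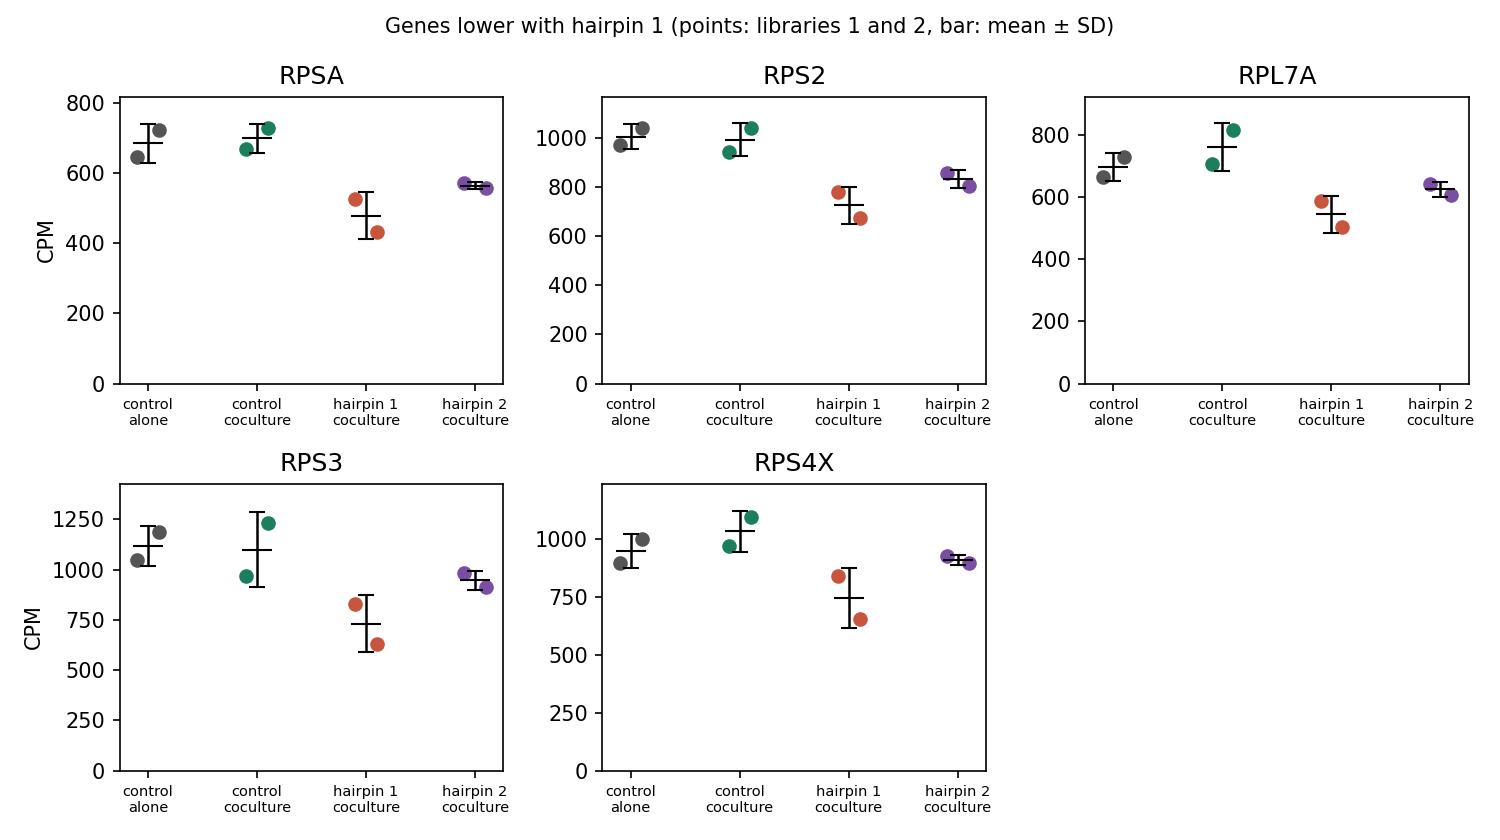
CPM (y axis, from 0) of 5 of the 6 genes called lower with hairpin 1, in the 4 groups (x axis); points are the 2 libraries of a group, and the bar with caps is their mean ± SD. Both hairpin 1 libraries lie below both control coculture libraries in each gene; for RPSA the means are 699 and 479 CPM, and 564 with hairpin 2.

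With hairpin 2 none of the 78 passed edgeR's test against the control coculture; 3 had an unadjusted p under 0.05, DESeq2 called 0, and 4.16% of all tested genes were called. The median over the 78 was −0.06 (log2), with 51 below 0, and 10 genes had both hairpin 2 libraries below both controls, against 28.0% of all tested genes. RPSA had the smallest p of the 78, at −0.31 (log2; SE 0.10, edgeR adjusted p = 0.139). Without the second control coculture library the median turned to 0.17, and without the first it was −0.23. Set directly against each other, hairpin 2 was above hairpin 1 for 77 of the 78 genes, RPS24 being level at 0.00, with a median of 0.30 (log2). None of these differences passed edgeR's test (smallest adjusted p 0.705) or DESeq2, 14 had an unadjusted p under 0.05, and 0.0316% of all tested genes were called. Both hairpin 2 libraries were above both hairpin 1 libraries in 73 of the 78, against 18.2% of all tested genes; the median was 0.12 without the second hairpin 1 library. The estimate for RPSA was 0.23 (log2; SE 0.10). Without the filter on low counts edgeR called 51 of the genes higher with hairpin 2 than with hairpin 1, and 1.01% of all genes in either direction.

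Depleted cocultures were also set against control cells alone, a contrast that joins coculture and depletion. By edgeR 11 of the 78 were lower and 0 higher, where 6.34% of all tested genes were called lower, and 7 of the 11 belonged to the large subunit. DESeq2 called 24 lower, beside 7.03% of all tested genes. All 78 estimates were below 0, with a median of −0.32 (log2), and 43 genes had all 4 depleted libraries below both of cells alone, against 20.6% of all tested genes. RPS2 had the smallest p, with 970 and 1041 CPM alone and 673 to 858 CPM in the depleted cocultures, a log2 change of −0.37 (SE 0.078, edgeR adjusted p = 0.0153). RPL13, a large subunit protein, stood at 1136 and 1233 CPM alone against 856, 732, 1062 and 948, a log2 change of −0.41 (SE 0.089, edgeR adjusted p = 0.0182). RPSA changed by −0.40 (edgeR adjusted p = 0.0184), RPS15 by −0.43 (edgeR adjusted p = 0.0270) and RPL39L by −0.34 (edgeR adjusted p = 0.0438). RPL28, RPL10A, RPL18, RPS10 and RPL9 were also among the 11. RPL10A stood at 1366 and 1542 CPM alone, 1222 and 1464 in the control coculture, 1113 and 885 with hairpin 1, and 1238 and 1186 with hairpin 2. In widely used constructs for this method the GFP tag sits on the product of RPL10A, so transgene reads could be in that count, which was not tested. Without the second hairpin 1 library the median over the 78 was −0.23 (log2), and fewer of them were called. The calls were lost without either library of cells alone or without the second hairpin 2 library, and fewer were called without the first hairpin 2 library. These fits called fewer of all tested genes lower too. The median was −0.43 without the first hairpin 1 library. Without the first or second control coculture library, which that contrast does not use, it was −0.32 and −0.33.

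Of the genes listed for a role outside the ribosome, for the stalk or for a paralog, edgeR without an offset called RPSA with depletion, and DESeq2 called RPSA and RPS3. RPL5 and RPL11, which bind MDM2 together with the 5S rRNA, changed by −0.20 and −0.19 with depletion (log2; SE 0.10 and 0.12). RPS6, the ribosomal substrate of S6 kinase, stood at 1349 and 1560 CPM in the control coculture, 1367 and 1003 with hairpin 1, and 1446 and 1441 with hairpin 2, and so overlapped. RPL13A, known from interferon-linked silencing of mRNAs, stood at 1018 and 1151 CPM in the control coculture, 919 and 765 with hairpin 1, and 1005 and 966 with hairpin 2. Its groups did not overlap and its change with depletion, −0.25 (SE 0.090), missed the threshold (edgeR adjusted p = 0.121). The stalk proteins, which recruit elongation factors, had depletion estimates of −0.25 for RPLP0, −0.34 for RPLP1 and −0.17 for RPLP2 (log2), none of them called without an offset. RPL22, RPL3 and RPL10 were at −0.16, −0.21 and −0.25, also not called there. Of the paralog pairs, RPS27 was at −0.16 and RPS27L at −0.05, and RPL39 at −0.08 and RPL39L at −0.13 (log2), with SEs of 0.21, 0.19, 0.17 and 0.099.

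The medians of the subunits were close, and a difference between them was not tested. With hairpin 1 the median was −0.36 (log2) over the large and −0.39 over the small subunit genes, and with both hairpins −0.20 and −0.24. With hairpin 1, 1 of 47 large and 5 of 31 small subunit genes were called lower, beside 4.73% of all tested genes. Genes with and without a pyrimidine run at the start site had like medians too. With depletion the 51 ribosomal protein genes with a run were at −0.20 and the 12 tested ones without at −0.21. Over all other tested genes the 1899 with a run were at −0.02 and the 8405 without at −0.01. A match to these letters is a description of the window and not a measured tract.

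The proteins are short, and short mRNAs of all kinds differed between these libraries. Protein length was 25 to 427 amino acids over the 78 genes with a median of 151.5, and 75 were under 300, while all tested genes with a length had a median of 469. Among other genes, those under 100 amino acids had a median of −0.347 (log2, relative to the gene's mean) in the second hairpin 1 library and −0.172 in the first control coculture library, against 0.214 in the second library of cells alone and 0.153 in the second control coculture library. Genes of 800 amino acids or more went the other way, at 0.124, 0.078, −0.110 and −0.046. Ribosomal protein genes of under 100 and of 100 to 199 amino acids put these libraries in the same order with a larger swing. Those of 100 to 199 amino acids were at −0.49 in the second hairpin 1 library, where other genes of that length were at −0.217. The order of the remaining libraries differed. In the first hairpin 1 library the lengths did not separate, at 0.004 for other genes and −0.094 for ribosomal protein genes of 100 to 199 amino acids.

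**Figure D3:**
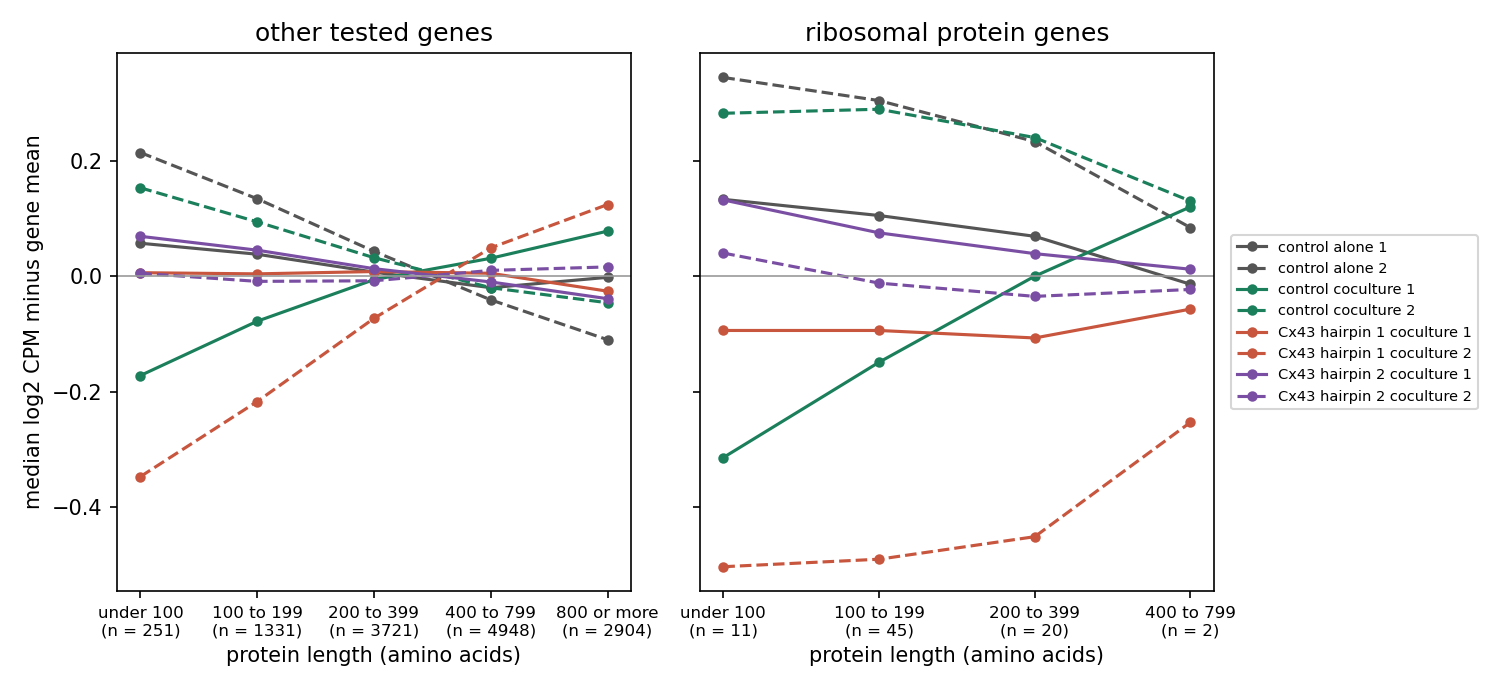
Median log2 CPM relative to each gene's mean (y axis) in bins of protein length (x axis, with the number of genes), for other tested genes at left and ribosomal protein genes at right; each line is 1 library, solid for the first and dashed for the second of a group. The second hairpin 1 library rises from −0.347 to 0.124 with length among other genes and lies at −0.503 to −0.253 among ribosomal protein genes.

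Set beside genes of like length, the ribosomal protein genes were lower with hairpin 1 in each bin. The median log2 change was −0.31 against −0.15 for under 100 amino acids, −0.38 against −0.12 for 100 to 199, and −0.38 against −0.05 for 200 to 399. With hairpin 2 the same pairs were 0.06 against 0.03, −0.05 against 0.01, and −0.13 against −0.01. Among the 78 genes the change with hairpin 2 was more negative in longer proteins (r = −0.551 across genes, which share libraries and are not independent). In the contrast of coculture with cells alone the shorter ones were lower (r = 0.58).

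When a smooth trend on log10 protein length was taken out of each library (13233 genes with a length), depletion lowered 19 of the 78 genes, where 11.0% of the genes with a length were called lower, and the median was −0.16 (log2). Hairpin 1 lowered 30 (background 9.73%; median −0.26) and hairpin 2 lowered 5 (background 7.28%; median −0.06). The 5 called with hairpin 2, which included RPSA, RPL7A, RPS2 and RPL29, were among the 30 called with hairpin 1, and both contrasts share the control coculture libraries. With hairpin 2, RPSA was at −0.30, RPL7A at −0.27, and RPS2 and RPL29 at −0.25 (log2; edgeR adjusted p from 0.0327 to 0.0441). The 6 genes called with hairpin 1 without the offset all kept their calls, RPSA at −0.50 and RPS3 at −0.52. Coculture of control cells then raised 1 gene, RPL12 of the factor-binding base of the stalk, which stood at 371 and 398 CPM alone and 407 and 485 in coculture (0.28 on the log2 scale with the offset, edgeR adjusted p = 0.0103; background 22.2% in either direction). Depleted cocultures against cells alone then had 24 genes lower (background 14.5%), 10 of the 11 called without the offset among them; RPL39L was not.

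**Figure D4:**
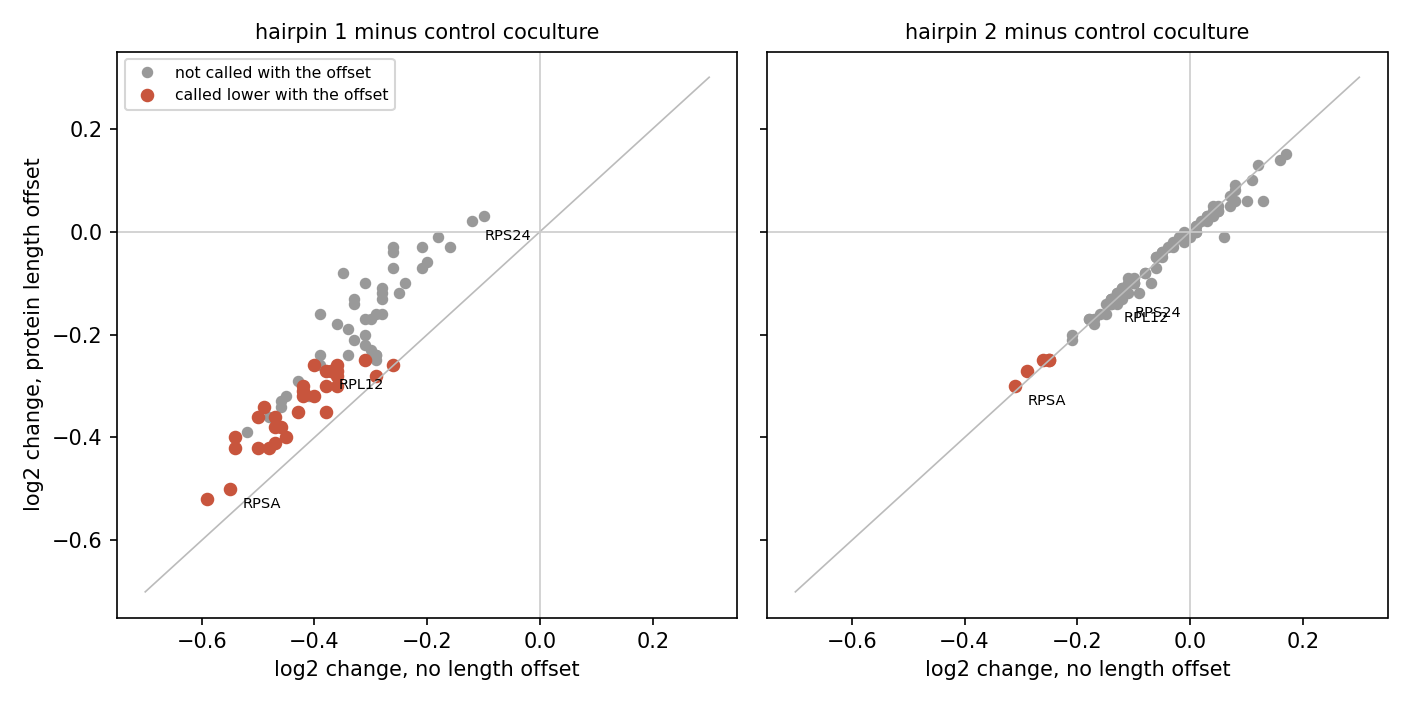
Log2 change of each of the 78 genes without (x axis) and with (y axis) the protein length offset, for hairpin 1 at left and hairpin 2 at right, with the line of equality; red points were called lower with the offset. The offset brings hairpin 1 values closer to 0, to a median of −0.26 from −0.36, and leaves hairpin 2 values near the line.

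With the offset, the calls leaned on single libraries as well. Without the second hairpin 1 library, hairpin 1 lowered 12 of the 78 (background 7.27%), and depletion 20 (12.0%). Without the second control coculture library, hairpin 1 lowered 4 (3.89%), RPSA, RPS2 and RPL7A among them, depletion lowered 2 (4.69%), RPSA among them, and hairpin 2 lowered 0 by edgeR (3.42%). In the contrast of coculture with cells alone, RPL12 then lost its call (0.23 on the log2 scale, edgeR adjusted p = 0.0687), and RPS21 and RPS26 were called lower, at −0.31 and −0.30. RPSA was called lower with hairpin 1 in each of these fits, at −0.46 (log2; edgeR adjusted p = 0.0220) without the control library. An offset on transcript length, chosen after the data were seen, gave smaller medians, −0.10 with depletion and −0.17 with hairpin 1, with 16 genes called lower (background 10.6%) and 19 (8.47%).

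Other lists place the ribosomal protein genes among related mRNAs. The 18 translation factors and other mRNAs known for a 5′ TOP had 5 called lower with depletion, EEF1A1, EIF3F, HNRNPA1, EEF1D and EIF3L, with all 18 below 0 and a median of −0.25 (log2), where 5.85% of all tested genes were called lower. Among the 18, EEF1G stood at only 0.410 to 0.853 CPM, so its sign rests on few reads. EEF1A1, the elongation factor that delivers aminoacyl-tRNA, stood at 3991 and 4345 CPM alone, 5378 and 5488 in the control coculture, 4025 and 3554 with hairpin 1, and 4154 and 4168 with hairpin 2. It was higher in the control coculture than in any other library and changed by −0.45 with depletion (SE 0.069, edgeR adjusted p = 0.00570). Coculture of control cells raised 4 of these 18, EIF4B, EIF3L, EEF2 and EEF1A1 at 0.33 to 0.61 (log2), where 8.74% of all tested genes were called higher; that contrast shares the control coculture libraries with depletion. With the protein length offset 12 of the 18 were lower with depletion (background 11.0%) and 7 with hairpin 2 (7.28%).

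**Figure D5:**
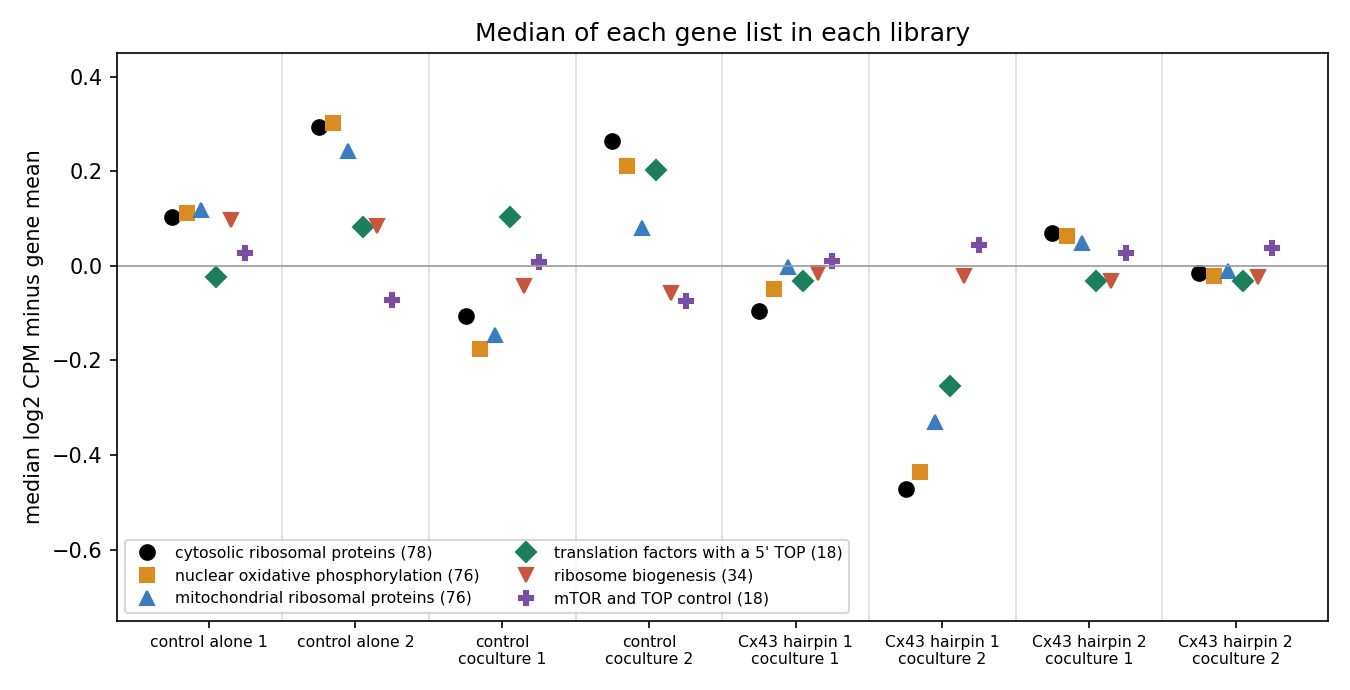
Median over each gene list of log2 CPM minus the gene's mean over 8 libraries (y axis), by library (x axis); the number of rows is in the legend. Oxidative phosphorylation rows lie near the ribosomal protein genes, at −0.435 and −0.472 in the second hairpin 1 library and −0.176 and −0.107 in the first control coculture library. Ribosome biogenesis and mTOR genes stay within 0.1 of 0.

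Of the 7 ribosomal proteins under other symbols, 1 was called lower with hairpin 1, where 4.73% of all tested genes were. It was GNB2L1, which encodes the scaffold RACK1, at −0.35 (log2, edgeR adjusted p = 0.0484). FAU, whose product is cut to RPS30, was at −0.40 and was not called. Ribosomal protein pseudogene rows held 4.31 to 5.31 reads per 1000 reads of the ribosomal protein genes and followed them. In 76 mitochondrial ribosomal protein genes depletion lowered 1 and raised 0 (median −0.05, log2), and in 76 rows matched by symbol to nuclear oxidative phosphorylation genes it lowered 1 (median −0.14). Of all tested genes 5.85% were called lower with depletion. The oxidative phosphorylation rows hold 3 pseudogenes and UQCR11 in 2 rows. Over the 8 libraries the median of the ribosomal protein genes correlated at 0.987 with that of the oxidative phosphorylation rows and at 0.944 with that of the mitochondrial ribosomal proteins. Both of these lists also hold short proteins, and the points share library and scaling.

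Ribosome biogenesis genes correlated with them at 0.343 over the same libraries. Of 34, depletion lowered 1, MYC, the transcription factor that drives ribosome production, where 5.85% of all tested genes were called lower. The list median was 0.03 (log2). MYC stood at 237 and 235 CPM alone, 326 and 329 in the control coculture, 255 and 258 with hairpin 1, and 252 and 251 with hairpin 2, and changed by −0.37 with depletion (edgeR adjusted p = 0.00310). Its replicates were close together in every group, unlike those of the ribosomal protein genes. Of 18 genes of mTOR signalling and 5′ TOP control, depletion raised 2, SESN2, an inhibitor of mTORC1, by 0.58 (log2; edgeR adjusted p = 0.00182) and RPS6KB1, the S6 kinase, by 0.23 (edgeR adjusted p = 0.0339), where 3.37% of all tested genes were called higher. The median of that list correlated with that of the ribosomal protein genes at −0.73 over the 8 libraries. It ran only from −0.074 to 0.043 (log2), beside −0.472 to 0.293 for the ribosomal protein genes. These points share library and scaling, and a link was not tested. SESN2 stood at 30 and 28.5 CPM in the control coculture, 41.2 and 46.0 with hairpin 1, and 43.1 and 44.4 with hairpin 2. LARP1 was not called, at 0.17 (log2; SE 0.10). Of 10 snoRNA host genes, many of which carry a 5′ TOP, depletion called 0 by edgeR, with a median of −0.06, where 9.22% of all tested genes were called in either direction.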

How the data were processed

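RNA bound to GFP-tagged ribosomes was sequenced in 8 libraries, 2 for each of 4 groups. The authors deposited 1 table of counts per gene (whole numbers, not scaled, as the values show, although it is named as normalized), with 5 rows of reads assigned to no gene, which were left out. TopHat2, HTSeq, DESeq2 and hg19 are named in the submitters' processing notes, without versions. Genes averaging 10 or more counts were scaled by TMM and fitted with group as the only term over all 8 libraries in edgeR 4.0.16 (R 4.3.3; quasi-likelihood test, Benjamini-Hochberg adjustment, threshold 0.05). DESeq2 1.42.0 was an alternative. The fit was first tested on simulated counts. Depth was 38219702 to 48997555 counts per library.

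Protein length was the coding length of GENCODE v29 (GRCh38) over 3, as no protein table was at hand, although a RefSeq table had been planned. Lengths were matched by gene identifier in 81 of the 83 genes, and 9 whose longest transcript exceeded the coding part by over 1000 bases were given no level per kb. Length trends were loess curves (span 0.5) on log10 length, used as offsets. Uniqueness counted 50-base transcript words found in 1 gene only.

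The genes, lists and tests were chosen with earlier results of these data known. Text names up to 4 called genes per direction and contrast by p, a list of genes with known extra roles or paralogs, the 4 highest and lowest levels, the 3 widest spreads, genes next to the filter, GJA1, and up to 4 genes per list. RPS24, RPL12, RPL29, RPL10A, RPS10, FAU, LARP1, EIF3L and the remaining genes called against cells alone fall outside that rule and were chosen after their values were seen. Some genes are not reported here by name.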

Additional observations from a re-analysis of the deposited data

How the results depend on the processing

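No call of a ribosomal protein gene changed sign under any alternative, and upper-quartile scaling left all 32 results as they were. Counts of called genes are given in the order coculture, depletion, hairpin 1, hairpin 2, hairpin 2 against hairpin 1, and depleted coculture against cells alone. Percentages in brackets are the share of all tested genes called in either direction. By edgeR the counts were 0, 3, 6, 0, 0 and 11 (11.7, 9.22, 7.82, 4.16, 0.0316 and 17.1%). DESeq2's test gave 0, 5, 23, 0, 0 and 24. With no filter on low counts they were 13, 41, 70, 3, 51 and 72 (9.33, 7.21, 7.54, 3.96, 1.01 and 13.7% of 30073 genes). The cause was not tested. A replicate block gave 0, 0, 0, 0, 0 and 3 (7.34, 4.43, 2.82, 2.02, 0.00 and 9.50%). The labels do not say whether libraries with the same replicate number shared a source. Correlations of their deviations (−0.385 to 0.199) cannot settle that. The protein length offset gave 1, 19, 30, 5, 0 and 24 (22.2, 20.5, 18.7, 11.9, 0.113 and 30.8% of genes with a length). Chosen after seeing the data, the transcript length offset gave 4 (all higher, RPL12, RPL7A and RPL29 among them), 16, 19, 5, 0 and 12 (11 lower and 1, RPL12, higher), with a median of −0.10 (log2) in the last contrast. It called 22.0, 19.3, 16.1, 12.2, 0.113 and 25.6% of genes with a length. Scaling each library on the median of the ribosomal protein genes themselves moved the median of all genes by 0.126, 0.192, 0.351, 0.038, −0.328 and 0.327. Their own medians were then 0.00 for depletion, hairpin 1 and depleted coculture and −0.01 between the hairpins. That scaling fixes these medians near 0 in advance, so they are no result. It gave 0 calls in each contrast (2.01, 0.645, 0.475, 0.519, 0.00 and 3.07%), but it cannot show a change shared by these genes. The protein length offset without the second hairpin 1 library gave 4, 20, 12, 6, 0 and 21, and without the second control coculture library 2, 2, 4, 0, 0 and 35, with a hairpin 1 median of −0.14. Leaving out each library in turn, where a lone library is assumed to vary like the others, gave 0 to 19 calls for depletion, 0 to 45 for hairpin 1, 0 to 58 for depleted coculture and 0 in the remaining contrasts. The count without the first hairpin 1 library was the highest in each of the first 3. Medians then ran from −0.36 to 0.08 for coculture, −0.39 to 0.00 for depletion, −0.56 to −0.15 for hairpin 1, −0.23 to 0.17 for hairpin 2, 0.12 to 0.49 between the hairpins, and −0.43 to −0.23 for depleted coculture. With 2 libraries a group, precision is limited by the spread between libraries, 0.201 (log2, pooled SD of the list median).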
